A study of Mus musculus with 15 samples.

Results

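The organic anion transporters of the SLCO family were followed in bulk RNA-sequencing counts of cultured mouse bone marrow mesenchymal stromal cells (MSCs) with and without the taurine transporter TauT. The 5 genes described are *Slco4a1*, *Slco2a1*, *Slco2b1*, *Slco3a1* and *Slco5a1*, of 56832 genes in the count table. They were chosen by symbol because *Slco4a1* was already known to be cleanly higher in the knockout in these same libraries, so the genotype differences of the 5 genes are given as a description, without a test. All 5 were among the 17204 genes that passed a filter on low counts.

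MSCs came from the bone marrow of 16 week old mice of C57BL/6J background, either TauT+/+ controls or TauT-/- mice, which lack TauT (encoded by *Slc6a6*) in all tissues, and no group was given a further treatment. The libraries were labelled as 4 TauT+/+ male, 3 TauT+/+ female, 4 TauT-/- male and 4 TauT-/- female samples, 15 in all. The labels number samples within a group and do not say whether each came from a separate animal or culture, so p-values measure only the spread between these samples. Cells were cultured before RNA was taken, so the values are those of MSC cultures and not of MSCs in bone.

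SLCO genes encode organic anion transporting polypeptides, membrane proteins that carry large organic anions such as bile acids, steroid conjugates, thyroid hormones, prostaglandins and many drugs into cells without using the sodium gradient that TauT depends on. *Slco2a1* encodes the prostaglandin transporter, which takes prostaglandins up from outside the cell so that they can be broken down by the enzyme encoded by *Hpgd*. *Slco4a1* and *Slco3a1* encode widely expressed carriers of thyroid hormones and prostaglandins. *Slco2b1* encodes a carrier of steroid sulfates, and the substrates of the protein encoded by *Slco5a1* are poorly known.

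On GRCm39, *Slco4a1* lies on the plus strand of chromosome 2 from 180097984 to 180116660 and *Slco2a1* on the plus strand of chromosome 9 from 102865911 to 102973201. *Slco2b1* (99306783 to 99360547) and *Slco3a1* (73925161 to 74204944) both lie on the minus strand of chromosome 7, and *Slco5a1* lies on the minus strand of chromosome 1 from 12936773 to 13062982. RefSeq promoter windows, 250 bases before to 50 after an annotated start, were at hand for 3 of the 5 genes (6 windows), and each matched GRCm39 once. The windows below are shown because they belong to the member with the large genotype difference, *Slco4a1*, and to the most abundant member, *Slco2a1*. Capitals mark the GC box motif GGGCGG, read on either strand so that CCGCCC counts, in both *Slco4a1* windows, and the TATA box motif TATAAA in the *Slco2a1* window.
Slco4a1, upstream window, chr2:180097788-180098087, plus strand: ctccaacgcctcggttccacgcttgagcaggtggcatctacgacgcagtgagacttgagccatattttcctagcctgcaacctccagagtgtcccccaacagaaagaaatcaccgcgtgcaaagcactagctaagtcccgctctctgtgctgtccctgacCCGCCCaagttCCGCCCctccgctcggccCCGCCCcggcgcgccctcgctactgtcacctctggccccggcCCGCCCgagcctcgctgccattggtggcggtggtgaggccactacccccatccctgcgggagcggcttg
Slco4a1, inner window, chr2:180102521-180102820, plus strand: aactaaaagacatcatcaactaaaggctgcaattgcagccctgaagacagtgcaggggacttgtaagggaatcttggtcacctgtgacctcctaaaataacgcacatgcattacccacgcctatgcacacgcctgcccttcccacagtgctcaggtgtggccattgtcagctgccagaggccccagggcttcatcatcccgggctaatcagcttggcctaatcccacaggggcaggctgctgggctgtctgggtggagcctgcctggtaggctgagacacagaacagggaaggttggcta
Slco2a1 window, chr9:102885436-102885735, plus strand: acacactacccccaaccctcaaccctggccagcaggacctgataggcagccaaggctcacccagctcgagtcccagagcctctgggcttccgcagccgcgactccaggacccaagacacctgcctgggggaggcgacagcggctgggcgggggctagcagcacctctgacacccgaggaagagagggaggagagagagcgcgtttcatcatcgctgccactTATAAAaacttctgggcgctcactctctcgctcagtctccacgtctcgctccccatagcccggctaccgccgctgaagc
The upstream *Slco4a1* window is the start of 13 of the gene's 17 GENCODE transcripts (within 100 bases), and the inner window is the start of 1 of 17. The upstream window holds 24 CpG dinucleotides, 4 GGGCGG matches and no TATAAA, at 65.3% GC. The inner window holds 4 CpG dinucleotides and no match to either motif. Over 32851 RefSeq windows of 300 bases the median was 7 CpG dinucleotides and 52.7% GC, 35.7% of windows held GGGCGG, 5.50% held at least 4 of them and 20% held at least 24 CpG dinucleotides. The *Slco2a1* window has TATAAA 29 bases before the start, a motif found in 13.6% of all windows, 18 CpG dinucleotides and 1 GGGCGG, which is not in capitals. It is the start of 1 of the gene's 5 GENCODE transcripts, inside the gene and not at its outer end. Counts per gene do not tell which start was used.

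Male-labelled libraries held 69764291 to 101575071 counts each and female-labelled ones only 12761107 to 20781070, so depth and sex label cannot be told apart, while each depth held both genotypes. *Slc6a6* itself overlapped between the genotypes, at 592 to 2591 CPM (median 1712) in TauT+/+ and 401 to 1521 CPM (median 747) in TauT-/- libraries, so libraries are named by their labels. CPM is counts scaled to a common library size by TMM. *Xist* and *Ddx3y* went against the sex label in the libraries labelled TauT+/+ male 1, TauT-/- male 1 and TauT+/+ female 3. Of 105 pairs of libraries, TauT-/- male 1 with female 1 and TauT+/+ male 1 with female 1 were far the closest (spread of log2 count ratios 0.109 and 0.121, against 0.300 for the next pair and 0.0643 and 0.0672 from counting alone). All 15 were kept as labelled, and values without 1 or both libraries of a pair are given where they matter. The 14 stromal markers checked were all detected in both genotypes, at a summed level of 28333 to 47615 CPM in TauT+/+ and 6359 to 40775 CPM in TauT-/- libraries. Most of this sum came from *Col1a1*, *Cxcl12* and *Col1a2* (TauT+/+ means 12883, 12120 and 7173 CPM). *Lepr* was scarce in both, with means of 0.993 CPM in TauT+/+ (0.0134 to 1.95) and 0.946 CPM in TauT-/- libraries (0 to 2.35). Macrophage markers were also abundant, at 1315 to 9171 CPM summed over 17 genes in TauT+/+ and 6227 to 19250 CPM in TauT-/- libraries.

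*Slco4a1* was the member with the clear separation of the genotypes. In TauT+/+ libraries it was at 3.58, 0.389, 1.64 and 2.29 CPM under the male label (libraries 1 to 4) and at 3.16, 1.53 and 4.56 CPM under the female label (libraries 1 to 3). In TauT-/- libraries it was at 29.1, 29.8, 14.4 and 66.7 CPM under the male label and at 29.0, 36.1, 45.4 and 22.4 CPM under the female label. All 8 TauT-/- libraries lay above all 7 TauT+/+ libraries, and the lowest of them, TauT-/- male 3, was 3.16-fold above the highest TauT+/+ library, female 3. Means were 2.45 ± 1.42 CPM (SD, n = 7) and 34.1 ± 16 CPM (SD, n = 8). The fitted difference was 14.1-fold, or 3.82 in log2 (standard error 0.47). It was 4.18 (standard error 0.73) in male-labelled and 3.43 (standard error 0.44) in female-labelled libraries. Each genotype held a near-identical pair, male 1 with female 1, so its libraries are not all independent. The log2 fold change was 4 without both male 1 libraries and 3.94 without both female 1 libraries. The low values rest on few reads, with 20 to 246 counts in a TauT+/+ library against 430 to 5869 in a TauT-/- library. Among all genes tested, 0.692% had every TauT-/- library above every TauT+/+ library, and 1.30% passed an edgeR adjusted p of 0.05 in either direction. Since this contrast chose the gene, nothing is read from its place among them.

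**Figure D1:**
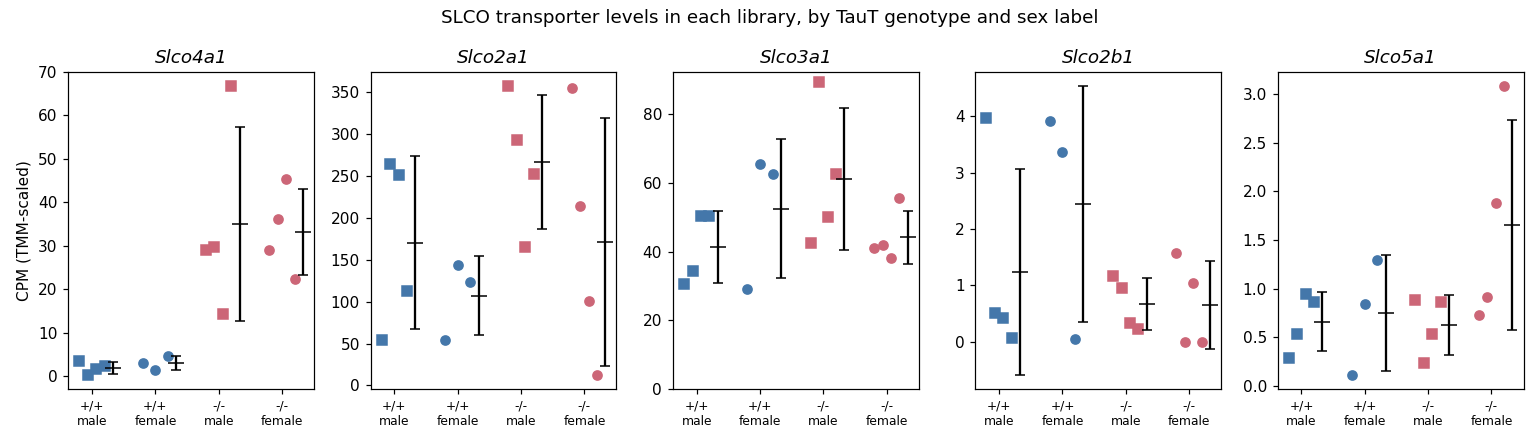
CPM (linear axes from 0) of the 5 SLCO transporters in each of 15 libraries, blue for TauT+/+ and red for TauT-/-, squares for male and circles for female labels, with the mean and SD of each group beside the points. *Slco4a1* separates the genotypes (at most 4.56 against at least 14.4 CPM), and the genotypes overlap for the other 4 genes.

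The 4 other members overlapped between the genotypes. *Slco2a1* was at 53.9, 264, 251 and 113 CPM in TauT+/+ male libraries 1 to 4 and at 53.8, 144 and 124 CPM in TauT+/+ female libraries 1 to 3. In TauT-/- libraries it was at 357, 293, 165 and 252 CPM under the male label and at 355, 214, 101 and 12.9 CPM under the female label. The library TauT-/- female 4 stood far below the others, and 3 of 8 TauT-/- libraries lay above all TauT+/+ libraries, of which TauT-/- male 1 and female 1 are one of the near-identical pairs. The means were 143 ± 85.1 CPM (SD, n = 7) and 219 ± 122 CPM (SD, n = 8), and the fitted log2 fold change was 0.66 (standard error 0.51). It was 0.42 without both male 1 libraries and 0.31 without both female 1 libraries. TauT-/- female 4 also had the lowest summed stromal markers (6359 CPM) and the highest summed macrophage markers (19250 CPM) of all libraries, and their part in its low *Slco2a1* was not tested.

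*Slco3a1* varied least. It was at 30.6, 34.3, 50.4 and 50.3 CPM in TauT+/+ male libraries and at 29.2, 65.5 and 62.7 CPM in TauT+/+ female libraries. The TauT-/- libraries had 42.5, 89.3, 50.1 and 62.6 CPM under the male label and at 41.1, 41.8, 38.1 and 55.6 CPM under the female label. The genotypes overlapped almost entirely, with 1 of 8 TauT-/- libraries, male 2, above all TauT+/+ libraries. Means were 46.1 ± 15.0 CPM (SD, n = 7) and 52.6 ± 17.0 CPM (SD, n = 8), and the fitted log2 fold change was 0.19 (standard error 0.23), with 0.58 under the male and -0.23 under the female label. Its coefficient of variation was 32.5% in TauT+/+ and 32.3% in TauT-/- libraries, against 59.3% and 55.6% for *Slco2a1* and 57.8% and 46.9% for *Slco4a1*.

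*Slco2b1* was scarce, at 3.97, 0.512, 0.415 and 0.0672 CPM in TauT+/+ male libraries and at 3.91, 3.37 and 0.0461 CPM in TauT+/+ female libraries. The knockout libraries had 1.16, 0.942, 0.336 and 0.216 CPM under the male label and at 1.57, 0, 1.04 and 0 CPM under the female label. The 2 libraries with 0 counts, TauT-/- female 2 and 4, allow up to 0.144 and 0.156 CPM (3 counts each, counting error only). The high values were those of TauT+/+ male 1 and female 1, which are near-identical, and of TauT+/+ female 2, and the other 4 TauT+/+ libraries lay among the TauT-/- ones. Means were 1.76 ± 1.88 CPM (SD, n = 7) and 0.659 ± 0.596 CPM (SD, n = 8), and the fitted log2 fold change was -1.35 (standard error 1.00). Without TauT+/+ male 1 it was -0.51, and without both libraries of that pair it was -0.09. *Slco2b1* shares 471 exon bases with the antisense gene *Gm15635* and 78 with *Gm34280*, each with 0 counts in all libraries. Of the abundant members, *Slco3a1* shares 500 with the antisense gene *Gm39037*, which is not in the count table. *Slco2a1* shares 104 with the antisense gene *Gm55789*, at 0 counts in all libraries.

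*Slco5a1* was at 0.291, 0.534, 0.947 and 0.861 CPM in TauT+/+ male libraries and at 0.115, 0.841 and 1.29 CPM in TauT+/+ female libraries. The TauT-/- values were 0.883, 0.23, 0.529 and 0.864 CPM under the male label and at 0.733, 0.912, 1.88 and 3.08 CPM under the female label. The 2 highest values were those of TauT-/- female 3 and 4, from 27 and 59 counts, and the rest of both genotypes overlapped. Means were 0.697 ± 0.407 CPM (SD, n = 7) and 1.14 ± 0.914 CPM (SD, n = 8), and the fitted log2 fold change was 0.45 (standard error 0.51), with -0.06 under the male and 1.15 under the female label. Without TauT-/- female 4 it was 0.21, and without TauT+/+ female 1 it was 0.22.

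**Figure D2:**
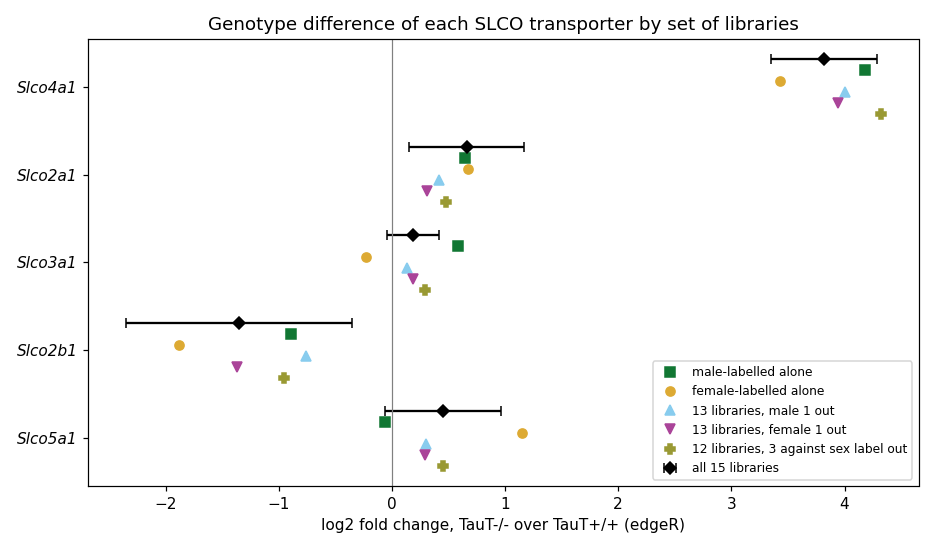
Log2 fold change of TauT-/- over TauT+/+ (horizontal axis) for each SLCO transporter, fitted on all 15 libraries (black diamonds, bars are 1 standard error), on 1 sex label alone and on 12 or 13 libraries. *Slco4a1* stays between 3.43 and 4.32 in the sets drawn, while *Slco3a1* and *Slco5a1* take either sign.

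Which member is the main SLCO transporter of these cultures was asked per exon length, as RPKM (CPM per kilobase of exon). In TauT+/+ libraries the median level was 9.09 RPKM for *Slco2a1*, 5.16 for *Slco3a1*, 0.374 for *Slco4a1*, 0.0819 for *Slco2b1* and 0.0624 for *Slco5a1*. *Slco2a1* was above *Slco3a1* in 7 of 7 TauT+/+ libraries, by 0.97 ± 0.83 on the log2 RPKM scale (SD, exact two-sided sign-flip permutation test over libraries, p = 0.0156, the smallest that 7 libraries allow, adjusted p = 0.0234 over 3 neighbouring pairs). *Slco3a1* was above *Slco2b1* in 7 of 7, by 5.14 ± 2.56 (same exact test, adjusted p = 0.0234). *Slco2b1* and *Slco5a1* did not differ beyond their spread (1.25 ± 2.99, higher in 4 of 7, same exact test, adjusted p = 0.312). *Slco4a1*, which the genotype contrast chose, is placed in this order without a test. With 1 library of the near-identical TauT+/+ pair left out, the exact adjusted p of the first 2 comparisons was 0.0469 (6 libraries). The order was read from the same libraries as the tests.

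In TauT-/- libraries the median was 17.0 RPKM for *Slco2a1*, 4.81 for *Slco4a1*, 4.75 for *Slco3a1*, 0.102 for *Slco2b1* and 0.0648 for *Slco5a1*. *Slco4a1* thus stood beside *Slco3a1* there. *Slco2a1* was above *Slco3a1* in 7 of 8 TauT-/- libraries, the exception being female 4, and this did not pass (log2 difference 1.17, same exact test, adjusted p = 0.129). The share of *Slco4a1* in the summed RPKM of 14 SLCO genes was 3.18% ± 2.49 (0.275% to 6.62%, n = 7) in TauT+/+ and 22.2% ± 10.9 (11.8% to 38.8%, n = 8) in TauT-/- libraries. *Slco2a1* held 59.3% ± 14.5 and 52.8% ± 20.8, and *Slco3a1* 30.9% ± 8.97 and 22.9% ± 13.5.

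**Figure D3:**
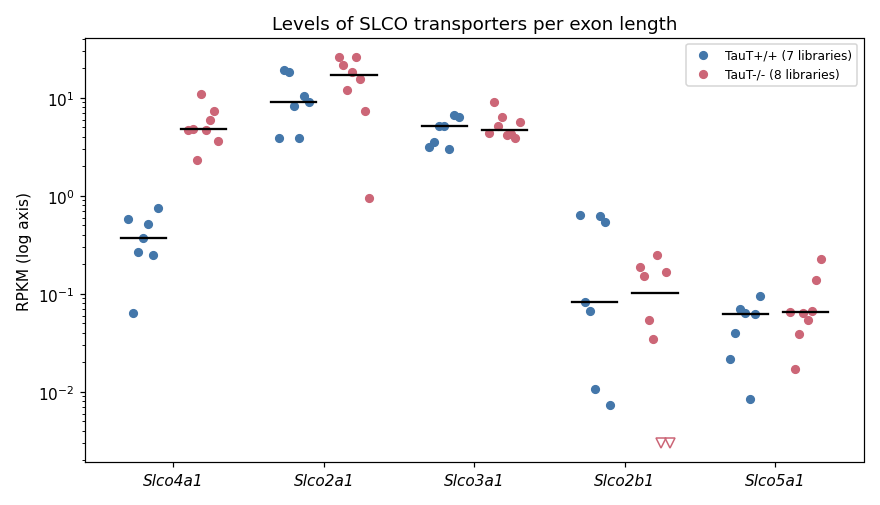
RPKM (log axis) of each SLCO transporter in 7 TauT+/+ (blue) and 8 TauT-/- (red) libraries, with the median as a black bar and libraries at 0 as open triangles at the bottom. *Slco2a1* (medians 9.09 and 17.0) lies highest, *Slco4a1* moves from 0.374 to the level of *Slco3a1*, and *Slco2b1* and *Slco5a1* lie lowest.

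Sex label was a contrast that the choice of genes had not used. None of the 5 members differed between male- and female-labelled libraries in edgeR's quasi-likelihood test with Benjamini-Hochberg adjustment over 17204 genes, where 0.0233% of all genes passed and 5.45% had an unadjusted p under 0.05. DESeq2 called none of the 5 either, and 0.238% of all genes. *Slco4a1* averaged 18.5 CPM in male- and 20.3 CPM in female-labelled libraries, a log2 difference (male minus female, genotype in the model) of -0.25 (95% interval -1.06 to 0.56, edgeR adjusted p = 0.948). *Slco2a1* averaged 219 and 144 CPM, a log2 difference of 0.66 (-0.35 to 1.66, edgeR adjusted p = 0.885). For *Slco3a1* it was 0.09 (-0.36 to 0.54), for *Slco2b1* -0.45 (-2.41 to 1.51) and for *Slco5a1* -0.86 (-1.86 to 0.14), with edgeR adjusted p from 0.880 to 0.965. These normal intervals are wide enough to hold a 2-fold difference in all but *Slco3a1*. The sex label of 3 libraries goes against their sex-linked genes, and without those 3 none of the 5 passed.

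A difference of the genotype effect between the sex labels was not detectable for any member (interaction term, edgeR over 18263 genes, 0.00% passed, 1.62% at an unadjusted p under 0.05, and 0.0164%, 3 genes, by DESeq2). For *Slco4a1* the difference of the log2 fold changes (male minus female) was 0.73 (95% interval -0.91 to 2.38). For *Slco3a1* it was 0.79 (-0.03 to 1.62), the member whose interval lay closest to leaving out 0. *Slco2a1* was at -0.03, *Slco2b1* at 0.99 and *Slco5a1* at -1.23, and the edgeR adjusted p was 1.0 for all 5. Without the 3 libraries against their sex label the difference was 3.05 for *Slco2b1* and -2.38 for *Slco5a1*, and neither passed (edgeR adjusted p = 1.0).

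Macrophage markers moved with genotype in the same direction as *Slco4a1*, although the cultures were sorted as CD45-, a gate that should remove CD45+ macrophages as well as other blood cells. *Ptprc*, which encodes CD45, was at 27.9 to 179 CPM in TauT+/+ and 114 to 370 CPM in TauT-/- libraries. Of 16 tested macrophage markers, 16 had a higher mean in TauT-/- libraries by the fitted fold change (median log2 0.90, against -0.0151 over all genes tested), of which 1, *Cd68*, passed (edgeR adjusted p = 0.0445), where 1.30% of all genes did. It passed 3 times of 15 when each library was dropped in turn, and did not pass without both male 1 libraries (edgeR adjusted p = 0.0718), without both female 1 libraries (0.0974), with no filter (0.0549), with no sex term (0.0502) or with the replicate block (0.0678). DESeq2 called 6 of the 16, and 12.1% of all genes. At an unadjusted edgeR p under 0.05 were 10 of the 16 (62.5%), against 23.6% of all genes. Of the list of 17, *Vsig4* was near absent in both genotypes, at most 0.153 CPM in TauT+/+ (median 0) and 0 in all TauT-/- libraries. *Lyz2*, *Csf1r*, *Adgre1* and *C1qa* were present in every library. The summed level, in which *Lyz2* had the largest share, overlapped between genotypes, and TauT-/- male 1 and female 1, at 6227 and 6798 CPM, lay inside the TauT+/+ range. *Slco4a1* was at 29.1 and 29.0 CPM in these 2 libraries, above all TauT+/+ libraries, whose highest was 4.56 CPM. *Cd68* did not overlap, at 36.3 to 259 CPM in TauT+/+ and 309 to 1087 CPM in TauT-/- libraries, that pair included. Each of the other listed macrophage markers overlapped between the genotypes. Of all genes tested, 0.692% had every TauT-/- library above every TauT+/+ library. TauT-/- male 1 and female 1 are near-identical, and the other 6 TauT-/- libraries lay above the TauT+/+ range of summed macrophage markers. In bulk samples, more cells of a type and more RNA per cell cannot be told apart. The stromal list had a median log2 fold change of -0.44, with 0 of 14 called by edgeR, 4 (28.6%) at an unadjusted p under 0.05, where 23.6% of all genes were, and 2 lower by DESeq2. By the fitted fold change, 10 stromal markers were lower and 4 higher in TauT-/- libraries. Endothelial markers summed to 9.60 to 20.4 CPM in TauT+/+ and 13.4 to 117 CPM in TauT-/- libraries, with 0 of 7 called by edgeR, 2 at an unadjusted p under 0.05 and 1 by DESeq2. Their part in the values of the SLCO genes was not tested.

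**Figure D4:**
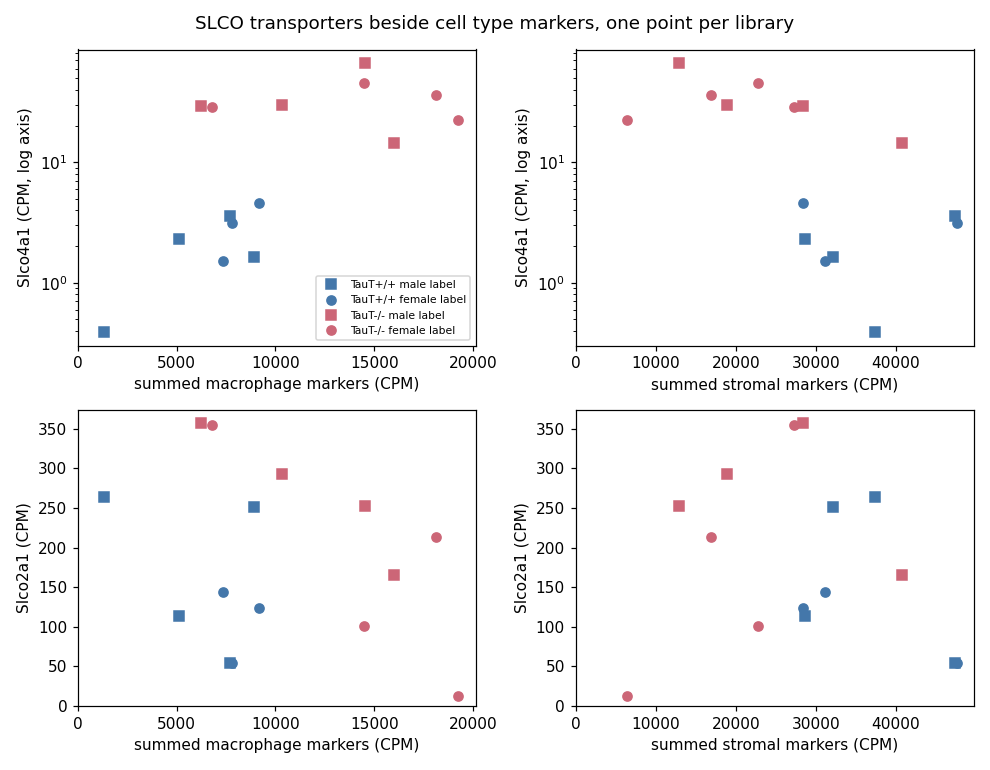
*Slco4a1* (top, log axis) and *Slco2a1* (bottom, linear axis) in CPM against the summed CPM of macrophage markers (left) and stromal markers (right), 1 point per library, blue for TauT+/+ and red for TauT-/-, squares for male and circles for female labels. TauT-/- male 1 and female 1, which are near-identical, have *Slco4a1* near 29 CPM at macrophage sums of 6227 and 6798 CPM. These sums lie inside the TauT+/+ range of 1315 to 9171 CPM, and the other TauT-/- libraries lie above it. The part of macrophage content in *Slco4a1* was not tested.

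Across libraries the members did not vary as a set. With the 4 group means taken out of log2(CPM + 0.5), Pearson's r over 15 libraries was -0.08 to 0.02 between *Slco4a1* and each other member, and 0.05 between *Slco2a1* and *Slco3a1*. *Slco2b1* ran opposite to *Slco5a1* (r = -0.59) and *Slco3a1* (r = -0.50), and *Slco3a1* and *Slco5a1* ran together (r = 0.46). These are descriptions of 15 libraries that share near-identical pairs and differ in depth.

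The genes whose pattern was most like each member's were read the same way, over 13199 or 13200 genes of at least 1 CPM on average. For *Slco4a1* they were *Gsdme* (r = 0.84), which encodes a pore-forming gasdermin, *Utp14a* (0.82), *Pcp4l1* (0.80), *Folr2* (0.80), the folate receptor gene of macrophages, and *Npepl1* (0.78). With the group means left in they were *Fxyd2* (0.95), which encodes a regulatory subunit of the sodium pump, *Bin3* (0.93), *Cdk9* (0.92), *Ddx41* (0.91) and *Cd244a* (0.91). Such an r also carries the genotype contrast that chose *Slco4a1*, so nothing is read from values with the means left in. The median r of *Slco4a1* with 16 macrophage markers was 0.43 with the group means out and 0.68 with them in. With the means out, the other marker lists compared had medians of -0.43 (neutrophil) to 0.01 (epithelial). None of the macrophage markers was among its 100 most alike genes, which tells little, since 100 of 13199 genes would seldom hold any of 16. *Slco2a1* was most like *Wdr35* (0.95), *Ptpn11* (0.93), which encodes the phosphatase SHP2, *Steap2*, *Arhgef18* and *Actr1a* (0.92 each). *Slco3a1* was most like *Gbgt1*, *Noa1* (0.84 each), *E2f6* (0.83), *Hspb8* and *5031425E22Rik* (0.82 each). *Slco2b1* was most like *Ctnnd2* (0.93), *Stk26* (0.91), *Adamts1* (0.89), *Col28a1* (0.87) and *Rbms1* (0.86), and *Slco5a1* most like *Ddx10* (0.92), *Ccnt1* (0.90), *Arih2*, *Sbno1* (0.87 each) and *Golga4* (0.86).

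Most of the rest of the family was at or near 0 in these cultures, *Slco1a5* excepted. Of 17 SLCO genes listed, 15 were in the table under those symbols. *Slco4c1*, *Slco6b1*, *Slco6c1* and *Slco6d1* had 0 counts in all 15 libraries, and *Slco1b2*, *Slco1a4*, *Slco1a1* and *Slco1a6* had too few counts to be tested. *Slco1a5* was at 0.478 to 3.35 CPM (median 1.89) in TauT+/+ and 0.104 to 2.34 CPM (median 1.17) in TauT-/- libraries, and per exon length its TauT+/+ median of 0.498 RPKM was above that of *Slco4a1* (edgeR adjusted p = 0.474, log2 fold change -0.73 with a standard error of 0.59). *Slco1c1*, a thyroxine carrier of the brain's vessels, was at most 0.365 CPM in any library (edgeR adjusted p = 0.681, log2 fold change 0.49 with a standard error of 0.65).

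Genes that handle the same substrates were counted by list, beside the shares over all genes tested of 1.30% past edgeR's threshold, 23.6% at an unadjusted p under 0.05 and 12.1% past that of DESeq2. In the prostaglandin pathway, 0 of 20 tested genes passed edgeR's threshold, 4 (20%) had an unadjusted p under 0.05, and the median log2 fold change was 0.07. *Ptgs2*, which encodes the inducible cyclooxygenase, was at 130 ± 206 CPM (SD, n = 7) and 126 ± 130 CPM (SD, n = 8), and *Ptges3*, a prostaglandin E synthase gene, at 68.1 ± 15.8 and 72.0 ± 5.71 CPM. DESeq2 called 2 of the 20, *Ptger2* higher, a receptor for prostaglandin E2 (3.21 ± 1.59 to 8.77 ± 6.12 CPM, edgeR adjusted p = 0.108, DESeq2 0.0283), and *Hpgd* lower (7.99 ± 7.68 to 1.98 ± 2.24 CPM, edgeR adjusted p = 0.13, DESeq2 0.0316). *Hpgd* encodes the enzyme that degrades the prostaglandins brought in by the *Slco2a1* product. Both are named because of their values, and 2 of 20 is no more than the DESeq2 share over all genes.

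In the thyroid hormone pathway 0 of 14 tested genes passed by edgeR or DESeq2, and 2 (14.3%) had an unadjusted edgeR p under 0.05, against 1.30%, 12.1% and 23.6% of all genes. *Dio3*, which encodes the deiodinase that inactivates thyroid hormone, was at 109 ± 59.2 CPM (SD, n = 7) and 223 ± 293 CPM (SD, n = 8), and the corepressor gene *Ncor1* at 171 ± 25.1 and 163 ± 15.9 CPM. The median log2 fold change of the list was 0.15.

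In the steroid sulfate and oestrogen pathway 1 of 11 tested genes passed, where 1.30% of all genes did. *Esr1*, which encodes oestrogen receptor alpha, fell by 1.65 on the log2 scale (standard error 0.33) at an edgeR adjusted p of 0.0389, with 10.6 ± 5.94 CPM in 7 TauT+/+ and 3.36 ± 0.745 CPM in 8 TauT-/- libraries (mean ± SD). When each library was dropped in turn it passed 4 times of 15 (edgeR adjusted p from 0.0107 to 0.1), and it did not pass without both male 1 libraries, without both female 1 libraries or with either sex label alone. *Hsd17b12* (86.4 ± 18.8 and 101 ± 10.4 CPM) and *Hsd17b4* (91.5 ± 11.7 and 84.3 ± 9.03 CPM), both encoding 17-beta hydroxysteroid dehydrogenases, were the most abundant of the list and did not pass. DESeq2 called *Esr1* and *Sult1a1*, a sulfotransferase gene (5.46 ± 5.26 to 1.23 ± 1.10 CPM, edgeR adjusted p = 0.0983, DESeq2 0.0175). In all, 2 of the 11 passed by DESeq2 and 4 (36.4%) had an unadjusted edgeR p under 0.05, against 12.1% and 23.6% of all genes.

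The other carriers of organic ions gave no call by edgeR either. Among SLC22 carriers, 0 of 9 passed and 4 (44.4%) had an unadjusted p under 0.05, against 1.30% and 23.6% of all genes. Their median log2 fold change was -0.72, and 1 of 9 (11.1%) was above 0, against 48.3% of all genes. *Slc22a17* was at 29.3 ± 10.8 CPM (SD, n = 7) and 23.8 ± 16.3 CPM (SD, n = 8), and the carnitine transporter gene *Slc22a5* at 30.9 ± 9.03 and 18.9 ± 3.83 CPM (edgeR adjusted p = 0.0702, DESeq2 0.0143). DESeq2 also called *Slc22a3*, which was below 1 CPM on average in both genotypes. Among the export pumps that carry organic anions and drugs out of cells, 0 of 11 passed and 5 (45.5%) had an unadjusted p under 0.05, against 1.30% and 23.6% of all genes, with a median of -0.01. *Abcc1* was at 160 ± 49.6 and 232 ± 92.9 CPM and *Abcc5* at 155 ± 53.3 and 108 ± 67.7 CPM. DESeq2 called 1 of the 11 (12.1% of all genes), *Slc47a1*, which was below 1 CPM on average in both genotypes.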

How the data were processed

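Total RNA (1 ng) of cultured, magnetically enriched MSCs was made into oligo-dT primed full-length cDNA libraries (SMART-Seq mRNA LP) and sequenced as pairs of 150 nt reads. Per the labels and the study's methods, the authors trimmed reads with fastp 0.23.1, aligned them to GRCm39 (GENCODE M31) by STAR 2.7.9a, and made counts per gene with featureCounts (Subread 2.0.1) by strand. No strand-marking step is described for the kit, so it is not known whether reads of a gene and of an antisense partner were told apart. The antisense genes *Gm15635*, *Gm34280* and *Gm55789*, which share exon bases with *Slco2b1* or *Slco2a1*, had 0 counts in all libraries. Whether the reads carry strand was not tested. The deposited values are raw counts for 56832 genes in 15 libraries, and 0 columns were left unused.

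Differential counts came from edgeR 4.0.16 in R 4.3.3 (TMM, filterByExpr, quasi-likelihood test, sex label and genotype in the model, Benjamini-Hochberg adjustment over all 17204 genes, threshold 0.05). The biological coefficient of variation was 0.482. DESeq2 1.42.0 was the alternative test. The interaction of sex label and genotype was fitted with its own filter (18263 genes). RPKM is CPM per kilobase of merged exons in GENCODE M39, a later annotation of the same build, and levels of members were compared on log2(RPKM + 0.01). The RefSeq windows come from a table on an older mouse build and were placed by an exact match to GRCm39. Other statistics used Python 3.11.15 and SciPy 1.17.1. The scripts were tested on simulated counts.

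The members and all gene lists were chosen with earlier results of these data known. The genes named are the 5 members, the other SLCO genes, in each pathway list those past the threshold and the 2 with the highest mean CPM, and for each member the 5 genes of largest Pearson's r with group means taken out (for *Slco4a1* also with them left in). Genes called by DESeq2 alone, and marker genes, were named after their values were seen. Marker lists of erythroid cells, neutrophils, lymphoid cells, osteoclasts, osteoblasts, epithelial cells and adipocytes were also checked, and edgeR called none of their genes for genotype. DESeq2 called 1 of 3 tested epithelial and 3 of 6 adipocyte genes, against 12.1% of all genes. An unadjusted edgeR p under 0.05 was found for 3 of 3 epithelial, 3 of 6 adipocyte and 1 of 4 osteoblast genes, against 23.6% of all genes. All 6 adipocyte genes were lower in TauT-/- libraries by the fitted fold change (median log2 -1.28). The alternatives were other normalizations, filters and models, each sex label alone, leaving out libraries, and the replicate number as a block. The fit without both libraries of the near-identical TauT+/+ pair was added after the data were seen.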

Additional observations from a re-analysis of the deposited data

Results flagged for a closer look

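*Slco2b1* in male-labelled TauT+/+ libraries had 1 value far from the others, 3.97 CPM in TauT+/+ male 1 against 0.0672 to 0.512 CPM in the other 3. The gap to the nearest library was 0.886 of the range of the group, above Dixon's 95% critical value for 4 samples. Of 15 groups of member values tested in this way 1 passed, where chance gives about 0.75 (1 in 20). The near-identical library TauT+/+ female 1 had 3.91 CPM.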

How the results depend on the processing

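The log2 fold change of *Slco4a1* was 3.43 to 4.32 over the 12 alternatives other than leaving out 1 library, and 3.55 to 4.06 over the 15 fits that left out 1 library. The same 15 fits gave 0.40 to 0.82 for *Slco2a1*, -1.63 to -0.51 for *Slco2b1*, 0.03 to 0.33 for *Slco3a1* and 0.21 to 0.65 for *Slco5a1*. *Slco2b1* moved to -0.09 without both libraries of the TauT+/+ pair, and *Slco5a1* to 1.15 in female-labelled libraries alone. In TauT-/- libraries the log2 level difference of *Slco2a1* over *Slco3a1* was 1.17 (exact permutation, adjusted p = 0.129), and that of *Slco2b1* over *Slco5a1* turned to -0.21 (exact permutation, adjusted p = 0.805). The cause was not tested. No alternative brought a member past the threshold for sex label or for the interaction.

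Over all genes, 129 were lower and 94 higher by edgeR. Lower and higher counts were 1106 and 972 by DESeq2, 42 and 32 with no filter, and 276 and 195 with no sex term, and 200 genes were lower with at least 10 counts in every library. They were 0 and 2 without both male 1 libraries, 0 and 7 without both female 1 libraries, and 0 and 0 without both libraries of the TauT+/+ pair, without the 3 libraries against their sex label, or in either sex label alone. Leaving out 1 library gave 4 to 779 lower and 8 to 476 higher genes. DESeq2 called 2 SLC22 carriers, 1 export pump, 2 prostaglandin and 2 steroid genes. The steroid list had 0 calls in all fits of 12 or 13 libraries, in either sex label alone and with the replicate block. Leaving out 1 library gave 0 to 2 steroid, 0 to 1 SLC22, 0 to 1 prostaglandin and 0 other list calls.

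Replicate numbers were not taken as pairs in the main fit. Same-numbered libraries of the 2 genotypes deviated together with r of -0.0348 to 0.636, and not all 7 were over 0.1. This does not settle whether some were paired. The largest r was that of TauT+/+ male 3 with TauT-/- male 3, also the closest libraries after the near-identical pairs (spread 0.3). With the replicate block, edgeR called 177 lower and 82 higher genes and 1 SLC22 carrier, and the fold changes of the members were 3.98 (*Slco4a1*), 0.89 (*Slco2a1*), -0.37 (*Slco2b1*), 0.18 (*Slco3a1*) and 0.28 (*Slco5a1*). Depth limits *Slco2b1* and *Slco5a1*, which had 0 to 273 and 2 to 89 counts in a library.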
